A study of Mus musculus with 6 samples.

Results

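Myosin light chains are the small subunits that wrap the neck of each myosin heavy chain, 1 essential and 1 regulatory chain on each head. Different genes encode them in the atria, the ventricles, skeletal muscle and smooth or non-muscle cells, and phosphorylation of the regulatory chain by light chain kinases tunes contraction. In the adult mouse heart Myl7 and Myl4 are typical of atrial muscle and Myl2 and Myl3 of ventricular muscle, while Myl4 and Myl7 are also expressed in the embryonic heart. The genes described here are the light chains Myl1, Myl2, Myl3, Myl4, Myl6, Myl7 and Myl9 and the light chain kinases Mylk and Mylk3. They were found by name, as the probe sets to which the platform annotation gives exactly 1 gene symbol equal to one of these 9 names. This gave 14 of the 45101 probe sets on the array and 9 of the 18193 genes measured, so no member was missing and none was filtered out. A further 2 probe sets list Myl6 together with other genes and were left out by this rule. The family was chosen by the measured differences of Myl4 and Myl7 between the same groups, known to be among the highest, so their differences below are a description and carry no test.

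The arrays measured RNA from the ventricular apex of the heart of transgenic mice. A PR-M expressing group (3 arrays) expresses a human transgene for PR-M, a truncated progesterone receptor that localizes to mitochondria, and a PR-M non-expressing group (3 arrays) is set against it. Every mouse of both groups received 2.5 mg of progesterone in oil under the skin for 19 to 21 days, so no group is free of the hormone. The sources used here do not give the strain, the age, the promoter of the transgene or how its expression was established. Nor do they say that the arrays within a group are of different animals, so each p-value measures only the spread among these samples, which may be technical.

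The values are the authors' log2 expression values, and a probe set's value says nothing of its abundance relative to another probe set's. Array medians lay between 5.77 and 5.78 and the highest value on any array was between 14.72 and 14.77. Arrays correlated with each other at 0.992 to 0.997 over all tested probe sets, lowest for non-expressing replicate 1 (mean r with its own group 0.993). The titles of the samples fall into 3 prefixes, 1 for the expressing group, 1 for non-expressing replicate 1 and 1 for non-expressing replicates 2 and 3, so a prefix cannot be told apart from the PR-M group. The 18S ribosomal RNA control probe sets averaged 8.31 ± 0.22 in expressing and 9.88 ± 0.38 in non-expressing arrays (SD, n = 3 each) without overlap. The beta-actin control's 3′ minus 5′ value, a sign of RNA integrity, was 1.20, 1.28 and 1.20 in the expressing and 1.43, 1.30 and 1.42 in the non-expressing arrays, also without overlap. The part of either control in the results below was not tested. The defining cardiomyocyte genes were bright on all 6 arrays. Tnnt2, the cardiac troponin T gene, averaged 14.40 in expressing and 14.32 in non-expressing arrays.

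Both atrial light chain genes were far higher in every PR-M expressing array than in every non-expressing array, and their ventricular counterparts differed by less than 0.1 on the log2 scale. Myl7, the atrial regulatory light chain, was at 9.22, 10.96 and 9.79 in the expressing arrays, against 6.68, 6.26 and 6.66 in the non-expressing arrays. The groups did not overlap, and expressing replicate 2 was the highest. Its mean was 9.99 ± 0.88 in expressing and 6.53 ± 0.24 in non-expressing arrays (SD, n = 3 each), a log2 difference of 3.45 (SE 0.37) or 10.9-fold. Myl4, the atrial and embryonic essential light chain, was read by 2 probe sets that behaved differently. The brighter was at 9.99, 11.72 and 9.96 in the expressing arrays, against 6.57, 7.28 and 7.01 in the non-expressing arrays. Expressing replicate 2 again stood above the other expressing arrays, by over 1 log2 unit. The mean was 10.56 ± 1.01 in expressing and 6.95 ± 0.36 in non-expressing arrays (SD, n = 3 each), a log2 difference of 3.60 (SE 0.43) or 12.1-fold. The dimmer Myl4 probe set showed no such pattern. It was at 6.32, 6.01 and 6.23 in the expressing arrays, against 6.15, 6.17 and 6.17 in the non-expressing arrays, a log2 difference of 0.02 (SE 0.09). The groups overlapped there, and expressing replicate 2, the highest on the brighter probe set, was the lowest. The probe sequences were not used here, so which Myl4 transcripts either probe set reads was not examined. With the mean of both probe sets the Myl4 difference was 1.81.

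**Figure D1:**
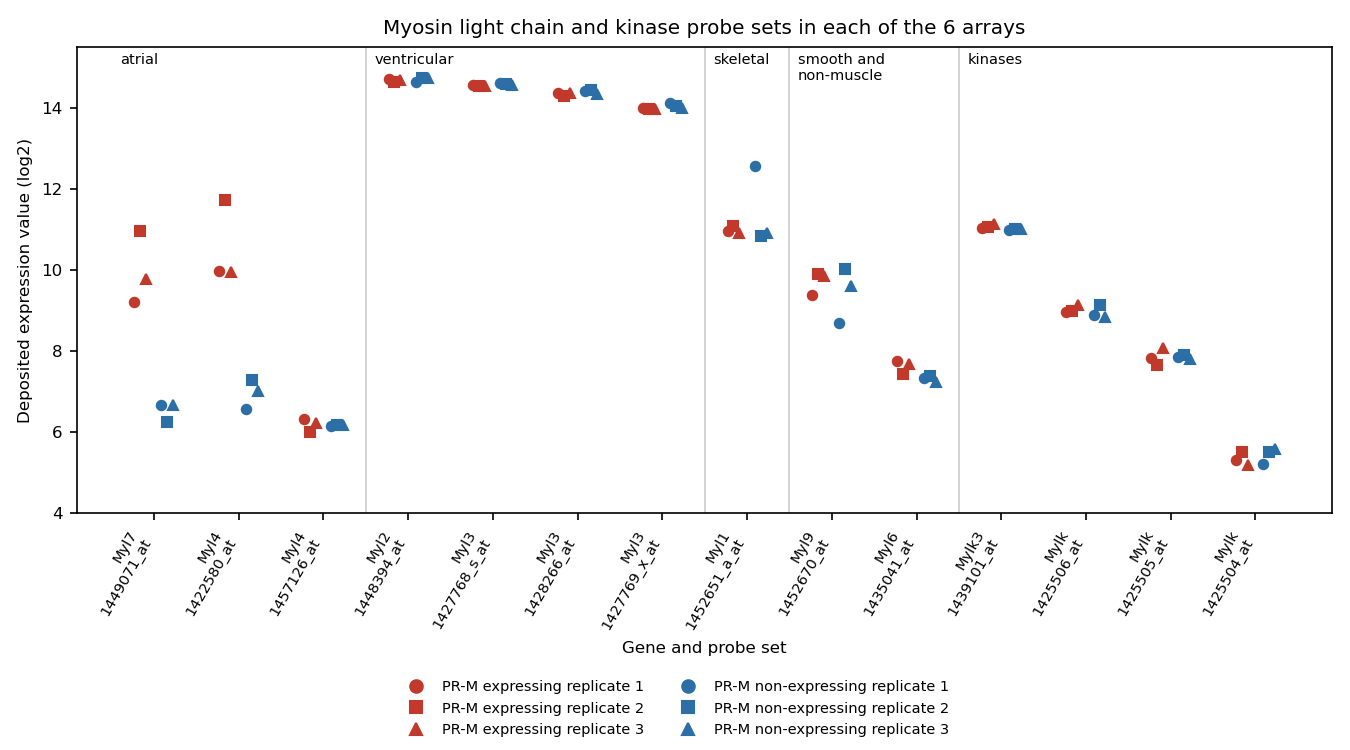
Deposited log2 value (vertical axis) of each of the 14 probe sets in each of the 6 arrays; red marks are PR-M expressing and blue marks PR-M non-expressing arrays, with a marker shape for each replicate. Myl7 and the brighter Myl4 probe set lie above 9 in every expressing array and below 7.5 in every non-expressing array, the ventricular genes lie near the top of the scale in all arrays, and Myl1 is high in non-expressing replicate 1 alone.

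Over the 18193 genes with 1 probe set each, Myl4 had the 2nd and Myl7 the 3rd highest difference. In limma, adjusted by Benjamini and Hochberg over these genes, 2 of the 9 genes passed, both higher, where 0.066% of all genes passed (0.033% higher and 0.033% lower). Since this comparison chose the family, nothing is read from that count. Over all probe sets, where 0.0133% passed (0.00222% higher and 0.0111% lower), none of the 14 did, and 3 of the 14 had an unadjusted limma p under 0.05, as had 12.2% of all probe sets (11.4% of genes). The count of 2 fell to 0 with expressing replicate 3 or any 1 of the 3 non-expressing arrays left out, to 1 without expressing replicate 1, and stayed at 2 without expressing replicate 2. It was also 0 with a random block for title prefix and with the spread refitted over genes. Across 15 alternatives Myl4 passed in 5 and Myl7 in 7. The log2 difference itself stayed between 3.02 and 3.90 for Myl4 and between 2.97 and 3.84 for Myl7 whichever array was left out.

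Sequence windows of the pair that moved and of their ventricular counterparts are shown for comparison. Each is the 250 bases before a start listed by RefSeq (build GRCm38.p6), read 5′ to 3′ on the gene's own strand. All 9 genes matched the RefSeq table, with 12 listed starts. For Myl2 the window of its first listed start is shown, and that of its second (chr5:122092939-122093188) is not. Capitals mark matches, on either strand, to the CArG box (the site of serum response factor, a regulator of muscle genes), GATAA (the core of GATA factor sites) and CATTCC (the M-CAT element of TEAD factors), and no matches overlap in these windows.
Myl7, chr11:5898783-5899032, minus strand: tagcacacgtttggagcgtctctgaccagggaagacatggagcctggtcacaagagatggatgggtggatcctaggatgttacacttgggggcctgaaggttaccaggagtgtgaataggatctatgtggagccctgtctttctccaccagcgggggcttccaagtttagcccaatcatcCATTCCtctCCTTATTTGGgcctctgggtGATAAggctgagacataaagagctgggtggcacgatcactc
Myl4, chr11:104550413-104550662, plus strand: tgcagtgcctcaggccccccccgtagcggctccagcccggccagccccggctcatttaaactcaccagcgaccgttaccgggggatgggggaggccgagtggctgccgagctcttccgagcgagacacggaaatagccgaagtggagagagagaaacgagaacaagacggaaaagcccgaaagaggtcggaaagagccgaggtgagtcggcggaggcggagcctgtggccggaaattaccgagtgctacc
Myl2, chr5:122092474-122092723, plus strand: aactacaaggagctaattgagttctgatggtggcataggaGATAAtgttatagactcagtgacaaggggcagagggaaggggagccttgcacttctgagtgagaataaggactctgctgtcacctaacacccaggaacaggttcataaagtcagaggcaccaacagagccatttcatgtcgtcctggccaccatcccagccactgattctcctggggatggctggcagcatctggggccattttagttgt
Myl3, chr9:110763428-110763677, plus strand: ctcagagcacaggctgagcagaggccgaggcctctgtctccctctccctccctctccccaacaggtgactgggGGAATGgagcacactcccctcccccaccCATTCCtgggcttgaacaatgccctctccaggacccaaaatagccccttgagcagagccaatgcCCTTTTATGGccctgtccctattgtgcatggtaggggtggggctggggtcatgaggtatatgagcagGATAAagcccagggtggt

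The Myl7 and Myl4 windows had no motif in common among those searched. Myl7 holds a CArG box, CCTTATTTGG, that begins 61 bases before the start, with CATTCC 70 bases and GATAA 41 bases before it. Myl3 holds the CArG box CCTTTTATGG 85 bases before its start, and it was the other printed gene with one. A CArG box was found in 1.47% of the 32851 windows of the same length in the RefSeq table. Among the other members it occurred before the start of Myl9 (CCTAATAAGG, 161 bases before it) and before 1 of the 2 listed starts of Myl6 (CCTTATATGG, 50 bases before it). GATAA was in 22.6% and CATTCC in 12.6% of all windows. The Myl4 window, the printed one richest in G and C (63.6%, where the median of all windows was 52.4%), held no match to any motif searched. Its listed start lies inside the annotated span of the gene (chr11:104546017-104587215), so another start of Myl4 was not examined. The listed starts of Myl1, Myl9, Mylk and Mylk3, the second of Myl2 and 1 of the 2 of Myl6 also lie inside the spans of their genes. Starts that are not listed were not examined for any member. Myl7 spans chr11:5896637-5898782, and its listed start is the outer end of that span. The motifs of MEF2 (in 2.92% of windows), T-box factors (AGGTGT, 11.8%), Nkx2-5 (TNAAGTG, 10.1%) and steroid receptors (the palindromic response element, 0.387%) were searched on both strands in the same way and matched none of the 12 member windows. TATAAA (12.4% of windows) matched only before the start of Myl1 and before the second start of Myl2. A match is a description of the letters and not a site in use.

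The ventricular light chains were near the top of the array's scale in both groups, where little room is left for a higher value to show. Myl2, the ventricular regulatory light chain, was at 14.70, 14.63 and 14.69 in the expressing arrays, against 14.65, 14.73 and 14.73 in the non-expressing arrays. The groups overlapped, with a log2 difference of -0.03 (SE 0.07, limma adjusted p 0.917 over genes). Myl3, the ventricular and slow muscle essential light chain, was read by 3 probe sets, each slightly lower in the expressing arrays. On the brightest it was at 14.56, 14.53 and 14.55 in the expressing arrays, against 14.60, 14.60 and 14.57 in the non-expressing arrays. The groups did not overlap, though the log2 difference was only -0.04 (SE 0.07, limma adjusted p 0.854 over genes). The other Myl3 probe sets differed by -0.07 and -0.08, and 1 of them also parted the groups.

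**Figure D2:**
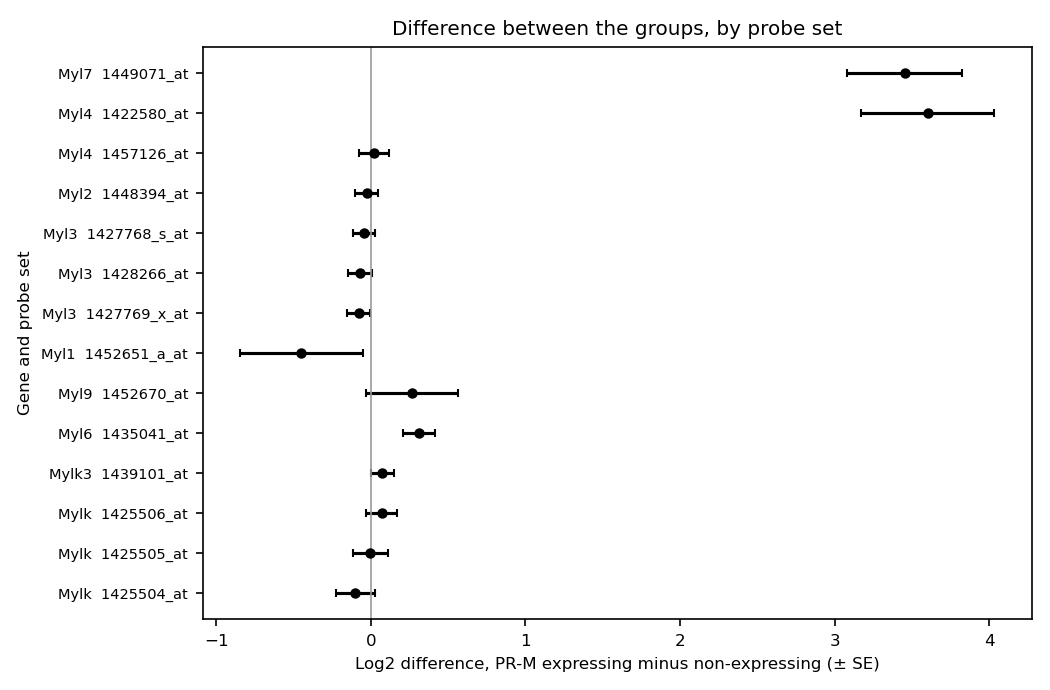
Log2 difference between the groups, PR-M expressing minus non-expressing (horizontal axis), for each probe set, with the moderated standard error of limma as bars. Myl7 and the brighter Myl4 probe set lie at 3.45 and 3.60 and the other 12 between -0.45 and 0.31.

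Set against its ventricular counterpart within the same array, each atrial chain stood higher in the expressing arrays. The constant of each probe set makes the level of such a difference uninterpretable, but the constant cancels between groups. Since Myl2 and Myl3 lay close to the highest value of the array, where values are compressed, the first 2 pairs add little to the values of Myl7 and Myl4 themselves. Myl7 minus Myl2 was -5.48, -3.67 and -4.91 in the expressing arrays, against -7.97, -8.47 and -8.07 in the non-expressing arrays. The change was 3.48 between the group means (-4.69 ± 0.93 in expressing and -8.17 ± 0.27 in non-expressing arrays, SD, n = 3 each). Myl4 minus Myl3 was -4.58, -2.81 and -4.59 in the expressing arrays, against -8.03, -7.31 and -7.57 in the non-expressing arrays, a change of 3.65. In both pairs the groups were apart and expressing replicate 2 was the highest. The smooth muscle chains gave far smaller changes. Myl9 minus Myl2 averaged -4.97 ± 0.32 in expressing and -5.26 ± 0.63 in non-expressing arrays (SD, n = 3 each), a change of 0.29 with overlap. Myl6 minus Myl3 averaged -6.93 ± 0.15 in expressing and -7.28 ± 0.06 in non-expressing arrays (SD, n = 3 each), a change of 0.35 without overlap.

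**Figure D3:**
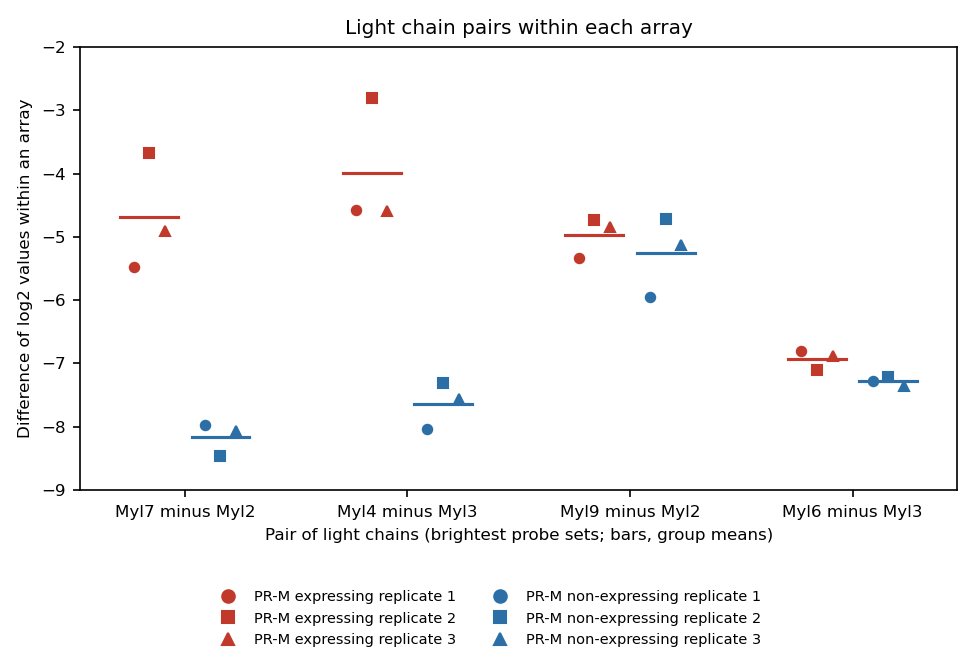
Difference between the log2 values of 2 light chains within each array (vertical axis) for 4 pairs; red marks are PR-M expressing and blue marks PR-M non-expressing arrays, horizontal bars are group means. Both atrial minus ventricular pairs lie above -5.5 in the expressing arrays and below -7 in the non-expressing arrays, while Myl9 minus Myl2 overlaps.

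Of the chains of other muscles none passed. Myl9, the regulatory light chain of smooth muscle, was at 9.38, 9.90 and 9.85 in the expressing arrays, against 8.70, 10.01 and 9.61 in the non-expressing arrays. The groups overlapped, and non-expressing replicate 1 was the lowest of the 6. The log2 difference was 0.27 (SE 0.30, limma adjusted p 0.769 over genes), and without non-expressing replicate 1 it was -0.10. Myl6, the essential light chain of smooth and non-muscle myosin, was at 7.76, 7.43 and 7.67 in the expressing arrays, against 7.33, 7.38 and 7.22 in the non-expressing arrays. The expressing arrays were all higher, the lowest of them only just, and the log2 difference was 0.31 (SE 0.10, limma adjusted p 0.348 over genes). Myl1, the fast skeletal essential light chain, was at 10.97, 11.08 and 10.91 in the expressing arrays, against 12.56, 10.84 and 10.90 in the non-expressing arrays. Its difference of -0.45 (SE 0.40, limma adjusted p 0.697 over genes) rested on non-expressing replicate 1, over 1 log2 unit above each of the other arrays. Without that array the difference was 0.12.

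Of the skeletal muscle markers all 10 were measured, 6 of them lay below the median of the probe sets on every array, and none passed. The sum of their linear values, which follows mostly the brightest of them, was 428 to 455 in the expressing and 452 to 491 in the non-expressing arrays. Non-expressing replicate 1, where Myl1 was high, held the highest sum and the highest value of 5 of the 10 markers. It also held the highest value of 5 of 11 ventricular, 5 of 14 atrial and 4 of 10 cardiomyocyte markers. Among smooth muscle markers it was highest in 2 of 10, and among conduction markers in 1 of 6. The share of all genes highest in that array was not counted, so nothing is read from these counts. The differences of the skeletal muscle markers lay between 0.05 for Atp2a1 and -0.27 for Mylpf, with Pvalb at 0.01 and Actn3 at -0.18. The part of skeletal muscle in the Myl1 value was not tested. Mylpf, the fast skeletal regulatory light chain, was at 5.55, 5.91 and 5.52 in the expressing arrays, against 5.83, 5.85 and 6.10 in the non-expressing arrays. Its log2 difference was -0.27 (limma adjusted p 0.458 over genes).

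The kinases differed little. Mylk3, the cardiac light chain kinase that phosphorylates Myl2, was at 11.03, 11.06 and 11.14 in the expressing arrays, against 11.00, 11.00 and 11.01 in the non-expressing arrays. All expressing arrays were above all non-expressing ones, by a log2 difference of 0.07 (SE 0.07, limma adjusted p 0.736 over genes). Mylk, the kinase of smooth and non-muscle cells, was read by 3 probe sets with differences of 0.07, 0.00 and -0.10, and the groups overlapped on each. On the brightest it was at 8.96, 8.98 and 9.14 in the expressing arrays, against 8.89, 9.15 and 8.84 in the non-expressing arrays. Over the 9 genes the median difference was 0.07, and the groups did not overlap in 5, including Myl4 and Myl7, whose separation chose the family. Of the other 7 genes the groups did not overlap in 3, of which 2 were higher and 1 lower. Over all genes the median was -0.02 and the groups did not overlap in 19% (8.16% higher, 10.8% lower). Of the 11 probe sets of genes other than Myl4 and Myl7, 4 parted the groups, 2 higher and 2 lower, as did 18.6% of all probe sets (8.27% higher, 10.3% lower).

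The rest of the light chain system was described through gene lists. Of 9 further light chain and kinase genes 7 were measured and none passed, with a median difference of -0.12. Mylk4, a striated muscle kinase related to Mylk3, was at 10.74, 10.65 and 10.32 in the expressing arrays, against 11.67, 10.96 and 10.73 in the non-expressing arrays. The difference was -0.55 (limma adjusted p 0.409 over genes), with non-expressing replicate 1 again the highest, and it was -0.27 without that array. Myl12a and Myl12b, non-muscle regulatory light chains, differed by -0.04 and 0.10.

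Of 17 genes of the light chain phosphatase and its regulators 13 were measured, and none passed (median difference 0.06). Ppp1r14c, an inhibitor of protein phosphatase 1, was at 10.94, 10.84 and 10.80 in the expressing arrays, against 10.61, 10.27 and 10.51 in the non-expressing arrays. It had the highest difference of the list, 0.39 (SE 0.10, limma adjusted p 0.269 over genes), and the groups did not overlap. Ppp1r14b, a related inhibitor, differed by 0.33 (0.11 with the mean of its probe sets), Ppp1r12c, a targeting subunit, by -0.08 and Dapk3, a kinase of the regulatory light chain, by -0.23. Without overlap 1 of the 13 was higher (Ppp1r14c) and 1 lower (Dapk3), where 8.16% of all genes were higher and 10.8% lower.

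All 12 listed myosin heavy chains, the partners of the light chains, were measured and none passed (median -0.08). Myh7, the slow heavy chain of the heart, was at 9.75, 9.97 and 9.82 in the expressing arrays, against 10.13, 10.33 and 10.51 in the non-expressing arrays. The groups did not overlap, and the difference was -0.48 (SE 0.11, limma adjusted p 0.212 over genes). Myh7b differed by -0.28, Myh14, a non-muscle heavy chain, by 0.21 and Myh11, that of smooth muscle, by 0.08. Without overlap 1 of the 12 was higher (Myh14) and 1 lower (Myh7). Of 18 regulators of cardiac and muscle genes 17 were measured and none passed (median 0.10). Myocd, the myocardin partner of serum response factor, differed by 0.33 without overlap (limma adjusted p 0.370 over genes) and Hand2 by 0.37 with overlap (0.382). With the mean of their probe sets Myocd differed by 0.08 and Hand2 by 0.04. Of the 17 regulators 4 were higher without overlap and 0 lower, where 8.16% of all genes were higher and 10.8% lower. Besides Myocd these were Gata6 (0.29, limma adjusted p 0.345 over genes), Tbx5 (0.27) and Tbx20 (0.17), named after their values were seen. The orphan receptors Nr2f1 and Nr2f2, which mark atrial identity, differed by -0.12 and -0.09.

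The genes whose pattern over the 6 arrays was most like those of the atrial light chains were each other and a short list shared by both. Likeness was Pearson's r over the 6 arrays, among 141 genes with an SD of at least 0.5, and it is only a measure of likeness because the groups are apart in every case and the points share arrays. For Myl4 the 6 most alike were Sln (0.995), Cacna2d2 (0.991), Myl7 (0.979), Vit (0.979), Prg4 (0.974) and Scin (0.934). For Myl7 they were Sln (0.991), Prg4 (0.989), Cacna2d2 (0.982), Myl4 (0.979), Vit (0.969) and Wif1 (0.949). The first gene left out had 0.916 for Myl4 and 0.928 for Myl7. Since Myl4 and Myl7 were themselves alike (0.979), lists so chosen tend to share genes, and nothing is read from the sharing.

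Sln is the gene of sarcolipin, which restrains the sarcoplasmic calcium pump and is typical of atrial muscle. It was at 8.14, 10.24 and 8.38 in the expressing arrays, against 4.99, 5.17 and 4.94 in the non-expressing arrays. Cacna2d2, which encodes an auxiliary calcium channel subunit, was at 6.81, 7.25 and 6.83 in the expressing arrays, against 6.12, 6.17 and 6.01 in the non-expressing arrays, and its difference of 0.87 was 0.21 with the mean of its probe sets. Prg4, the gene of the lubricating proteoglycan lubricin, was at 6.70, 7.48 and 7.08 in the expressing arrays, against 5.85, 5.80 and 5.64 in the non-expressing arrays. In each of these 3 genes, as in Myl4 and Myl7, expressing replicate 2 was the highest array, which the choice by likeness nearly fixes. The same held for Vit, a matrix protein gene (6.21 ± 0.33 in expressing and 5.21 ± 0.19 in non-expressing arrays), and for Scin, which encodes an actin-severing protein (6.37 ± 0.29 and 5.51 ± 0.26 in the same order). It held for Wif1, the gene of a secreted Wnt inhibitor, too (8.54 ± 0.32 in expressing and 6.64 ± 0.67 in non-expressing arrays, SD, n = 3 each).

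**Figure D4:**
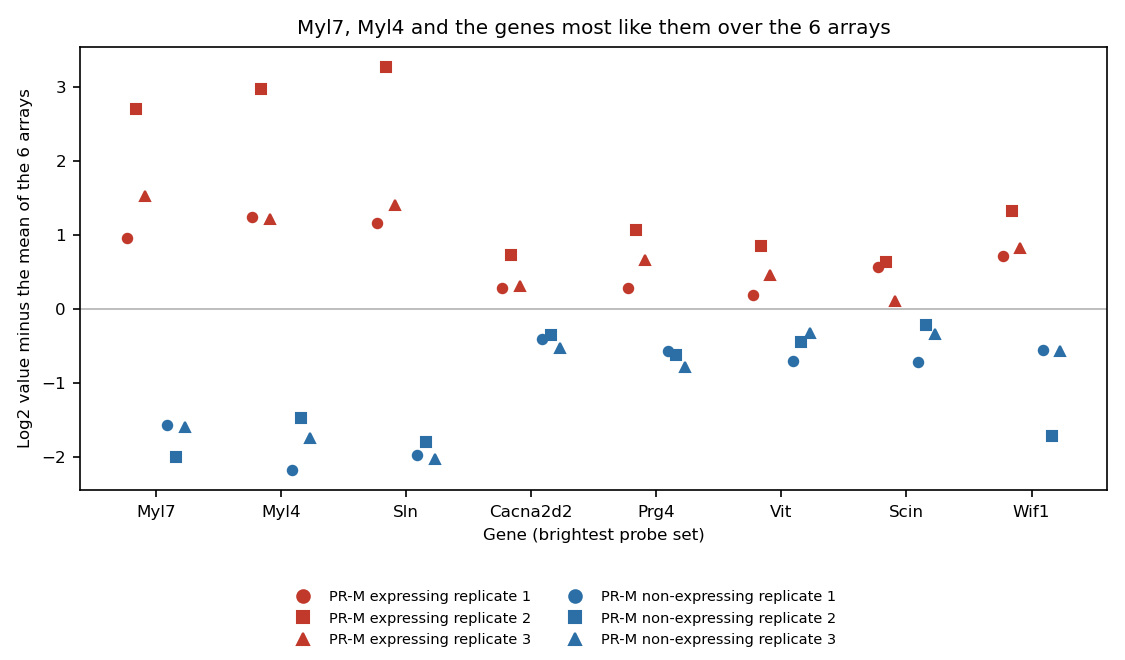
Log2 value minus the gene's mean over the 6 arrays (vertical axis) for Myl7, Myl4 and the 6 other genes named for likeness; red marks are PR-M expressing and blue marks PR-M non-expressing arrays. Expressing replicate 2 (red square) is the highest array for each gene, and all expressing arrays lie above all non-expressing arrays. The choice of genes by likeness nearly fixes both traits.

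Among the other markers of atrial muscle Sln was far higher in the expressing arrays, and the rest did not pass. Of 16 listed atrial markers other than Myl4 and Myl7, 14 were measured, Sln passed (limma adjusted p 0.0451 over genes) and 13 did not. Its difference of 3.89 was 2.01 with the mean of its probe sets (limma adjusted p 0.0873). Sln passed in 6 of the 15 alternatives, and not with expressing replicate 3 or any 1 of the 3 non-expressing arrays left out. Of the 14, 6 had a difference above 0 and 8 below, with a median of -0.06 and a mean of 0.44. Without overlap 4 were higher (Sln, Dkk3, Mybphl and Tbx5) and 0 lower, where 8.16% of all genes were higher and 10.8% lower. The sum of the linear values of the 14 was 3505 to 6633 in the expressing and 3113 to 4786 in the non-expressing arrays. It follows mostly the brightest of them. Nppa, the atrial natriuretic peptide gene, was at 9.07, 11.27 and 10.24 in the expressing arrays, against 10.74, 8.39 and 8.39 in the non-expressing arrays. The groups overlapped through non-expressing replicate 1, and the difference was 1.02 (limma adjusted p 0.603 over genes) with all arrays. It was 1.80 with that array left out and 1.58 with expressing replicate 1 left out. Leaving out expressing replicate 2 brought it to 0.48, and either of the other non-expressing arrays to 0.63. Named after their values were seen, Dkk3 (difference 0.83) and Mybphl (0.68) were also highest in expressing replicate 2 and did not pass, and Mybphl was at 0.31 without that array. Pam, an enzyme that amidates peptides, differed by -0.13, and Cacna1d, a calcium channel gene (4.94 to 5.45 over all arrays), by -0.18. Gja5 (4.48 to 4.78) and Bmp10 (5.59 to 5.82), also named after their values were seen, were near or below the array median in both groups. They differed by -0.09 and -0.03. Of brighter markers named in the same way, Kcnj5 differed by -0.08, Kcna5 by -0.10, Kcnj3 by 0.30 and Tbx5 by 0.27. The part of atrial muscle in the samples in these results was not tested. In whole tissue a change in the share of a cell type and a change in the RNA of each cell cannot be told apart.

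Other marker lists gave no call. Of the 11 ventricular markers 8 were above and 3 below 0 (median 0.07), from 0.24 for Gja1 and 0.19 for Lbh to -0.24 for Kcnj2 and the -0.48 of Myh7. Without overlap 0 of them were higher and 2 lower (Kcnj2 and Myh7), where 8.16% of all genes were higher and 10.8% lower. Of 8 conduction markers 6 were measured, with a median of 0.33. Shox2, a pacemaker factor near or below the array median (4.68 to 5.80), differed by 0.61 (limma adjusted p 0.228 over genes). Tbx18 differed by -0.47 (0.236), and neither gene overlapped between the groups. Tbx3 (7.25 to 7.88), named after its values were seen, differed by 0.44 (0.208), also without overlap. With the mean of its probe sets Shox2 differed by 0.20. Cntn2 differed by 0.52 and Isl1 by -0.02, both with overlap. Cntn2 was at 1.25 without non-expressing replicate 2 and at 0.36 without expressing replicate 2, and it passed in no alternative. All 10 smooth muscle markers had positive differences (median 0.09), where 8011 of all 18193 genes did. They were led by Tagln at 0.56 and Acta2 at 0.48, each with overlap between the groups, and ended with Mcam and Synpo2 at 0.01. The sign of Mcam, Myh11 and Synpo2 turned in 3, 3 and 6 alternatives. Acta2 was at 0.21 with the mean of its probe sets and at 0.74 without non-expressing replicate 1, and Tagln at 0.32 without expressing replicate 3. The sum of the linear values of the 10 was 4372 to 5049 in the expressing and 3552 to 4868 in the non-expressing arrays, beside the difference of 0.27 for Myl9. It too follows mostly the brightest of them. The 10 cardiomyocyte markers had a median of 0.02, from -0.07 for Mybpc3 and Nkx2-5 to 0.35 for Ryr2. Ryr2 was at 0.64 without non-expressing replicate 1 (limma adjusted p 0.0955) and at 0.18 without non-expressing replicate 2. Of 8 erythroid markers 3 were measured, with Alas2 at -0.48 (-0.23 without non-expressing replicate 1), Hba-a1 at 0.01 and Slc4a1 at 0.09.

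**Figure D5:**
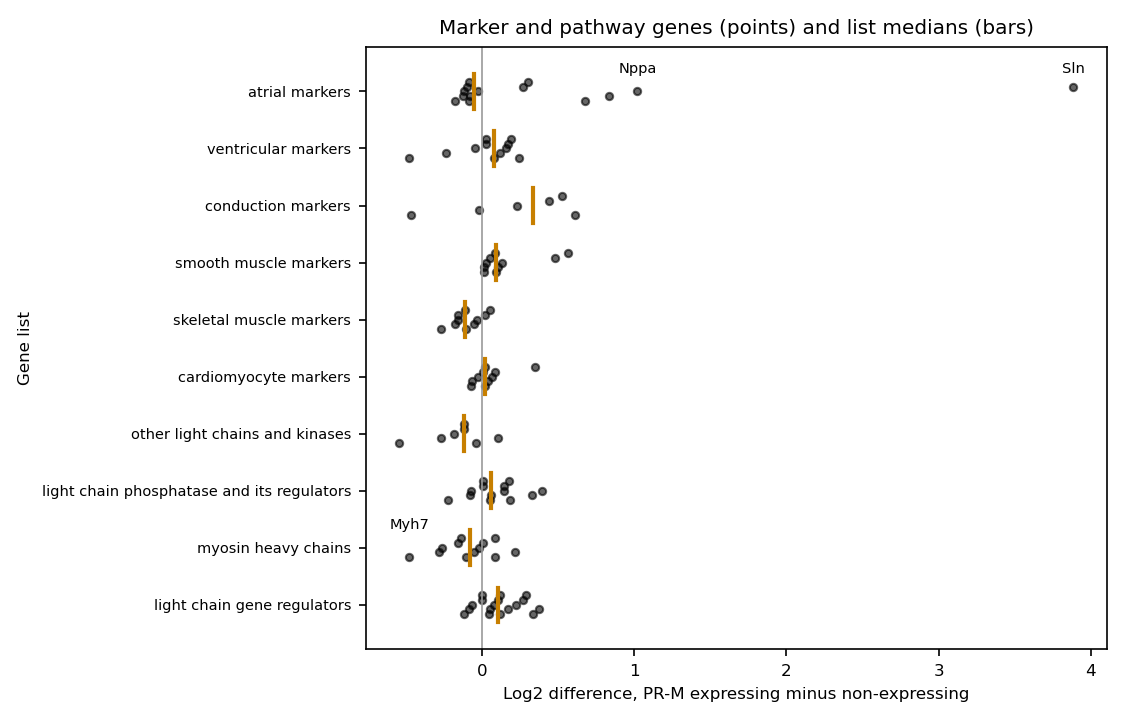
Log2 difference, PR-M expressing minus non-expressing (horizontal axis), of each measured gene of 10 lists (points), with the median of each list as an orange bar. Sln at 3.89 stands apart from the other atrial markers, whose median is -0.06 with it included, and no gene of the other lists passes 0.61.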

How the data were processed

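The measurements are deposited log2 values of 6 Affymetrix mouse arrays, 1 value per probe set and array. Per the labels, 500 ng of total RNA was amplified and biotin-labelled. The submitters' processing notes name RMA and Partek 6.6 with no role or order, and the sources used here give no settings. That the scale is log2 follows from the range of the values. The authors' sorted log2 values differed between arrays by at most 0.155, so a change common to all genes would not show. The number of arrays limits the precision.

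Of 45101 probe sets 64 controls were left out of the tests. The platform annotation gives 1 symbol to 34945 of the 45037 others, several to 932 and none to 9160. By gene identifier 34741 matched RefSeq (GRCm38.p6) and 0 symbols changed. Groups were compared with limma 3.58.1 in R 4.3.3 (lmFit, eBayes, two-sided) over all tested probe sets, with Benjamini-Hochberg adjustment at 0.05 over them and again over the brightest probe set of each of 18193 genes. SE is limma's moderated standard error, and differences are expressing minus non-expressing. The spread was shared over all probe sets; refitting it over genes was tried as an alternative chosen after the data were seen. The fit was tested on simulated data.

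The members and lists were chosen with earlier results of these data known. Named were all members, the 6 genes most like Myl4 and Myl7 each, and of each list the 2 highest and 2 lowest differences and any gene that passed; others are said to be named after their values were seen, or stand beside a member. Alternatives left out dim probe sets, normalized by cyclic loess or array medians, used array weights or a trended, robust prior, took title prefix as random block (statmod 1.5.0), or used no _x_at or _s_at probe sets or the mean of a gene's probe sets. Each array was also left out in turn. Sequences are from RefSeq. Figures were drawn with matplotlib 3.10.9.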

Additional observations from a re-analysis of the deposited data

How the results depend on the processing

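The calls of Myl4 and Myl7 rest close to the threshold, while the sizes of the differences changed little but for Myl4 with the mean of its probe sets (1.81). The same comparison chose the family, so both are a description and carry no test. The count of member genes that passed, 2, was 0 with the intensity trend and robust prior and with a random block for title prefix. It was also 0 with the mean of a gene's probe sets and with the spread refitted over genes (run after the data were seen). Without _x_at and _s_at probe sets it was 1, and with 1 array left out 0 to 2. Over all genes the count, 12, was 23 with the trend, 26 with array weights, 4 with the random block, 3 without _x_at and _s_at probe sets, 1 with the mean of probe sets, 4 with the refitted spread, and 0 to 18 with 1 array left out. Over probe sets the count, 6, was 31 without dim probe sets, 37 with the trend, 43 with array weights and 0 to 44 with 1 array left out. The change in Myl4 minus Myl3 was 1.88 with the mean of probe sets, which brings in the second Myl4 probe set. The median over the 9 genes was 0.041 to 0.16 with 1 array left out. The sign of Myl1, Myl9 and Mylk turned in 1 alternative each, and Myl2, Myl3, Myl4, Myl6, Myl7 and Mylk3 kept theirs in all 15. Of the 50 other named genes whose alternatives were tallied, Sln alone passed as reported, and Cacna2d2 and Prg4 passed in 2 and 3 alternatives. No paired analysis was possible because the labels give no replicate numbers shared between the groups.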

Other observations

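Non-expressing replicate 1 stood apart from the other non-expressing arrays in several muscle genes at once, named here after their values were seen. Myl1 was at 12.56 there and from 10.84 to 11.08 on the other 5 arrays. Mylk4 was at 11.67 there and Nppa at 10.74, against 8.39 for Nppa in both of the other non-expressing arrays. Ryr2, the calcium release channel gene, was at 12.34 there, from 11.94 to 12.23 in the expressing arrays, and 11.44 and 11.52 in the other non-expressing arrays. Myl9 was lower there than on any other array. Its sample title has a prefix of its own.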
